A study of Mus musculus with 8 samples.

Results

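Genes of the ciliary body and of related secretory epithelia, 8 in number, were followed across 8 one-color arrays of whole retina. They were Ttr, Folr1, Aqp1, Clic6, Kcnj13, Slc4a5, Car12 and Enpp2, taken by name through the transcript accession of each probe. No cut on a measured value chose them, but earlier results of these data were known. The array held 11 probes for these 8 genes, of 56605 probes for the whole array, and 10 of these probes, for 7 genes, were bright enough to be tested. Car12 was left out of the test because its single probe was not well above background on all arrays of either genotype.

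Of the samples, 4 carried the label of homozygous Mrp4 knockout and 4 were wild-type. All came from whole retina of mice aged 46 to 55 weeks by the labels, and the methods give a C57BL/6J background for the knockout. The methods name tissue from 3 mice and 4 samples of each genotype. Whether samples were pools or shared animals cannot be read from the text, so the p-values measure only the spread between these samples, which may be technical. Each sample was hybridized to 1 array of a shared slide with the genotypes in separate rows, so the slide row and the genotype cannot be told apart. The array's flag for signal well above background was set for 66.0% to 69.9% of probes, and the 75th percentile of the signal was lowest on array 2 labelled Mrp4-null (670) and wild-type array 3 (698), against 773 to 1068 on the others. Precision is set by the number of arrays.

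Abcc4, the targeted gene, went against the labels. Its normalized log2 signal was 10.84, 10.71, 10.64 and 10.80 under the Mrp4-null label and 6.62, 7.13, 6.54 and 7.02 in wild-type. The signal was thus higher under the knockout label, by 3.92 on the log2 scale (standard error, SE, 0.14, adjusted p = 1.36e-05 from limma). Where the probe lies relative to the deleted part is not given in the sources used here. Every direction in this text follows the labels as deposited. Xist was detected on each of the arrays with the Mrp4-null label and on wild-type arrays 1 and 2. Y-linked genes gave signal above background on wild-type arrays 2, 3 and 4 alone, so wild-type array 2 had both. These sex-linked signals were thus not balanced between the genotypes, and sex cannot be fully told apart from genotype here. The tissue label held against its markers. All 17 retinal marker genes were retained, and their mean normalized log2 signal was 14.23 to 14.34 on all 8 arrays.

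The ciliary body is the folded rim behind the iris whose double epithelium secretes the aqueous humour. Its non-pigmented layer faces the eye's interior, and its pigmented layer is continuous with the retinal pigment epithelium. These epithelia share much of their transport machinery with the choroid plexus, which secretes the cerebrospinal fluid: sodium is pumped, chloride and bicarbonate follow, carbonic anhydrases supply the bicarbonate and aquaporins carry the water. They also release carrier proteins and enzymes into the fluid. Neither the ciliary body nor the pigment epithelium belongs to the neural retina, although some of the genes below are also expressed in retinal neurons, glia or vessels. In bulk tissue, fewer cells of a type and less RNA per cell cannot be told apart.

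None of the secretory epithelium genes was called changed between the genotypes. A probe was called at a fold change of at least 1.5 with a Benjamini-Hochberg adjusted p under 0.05 in limma, a rule that 0.545% of the 37085 retained probes met. Limma called 0 of the 7 tested genes, beside 0.572% of all 16093 genes by their brightest probe. Of the 7, 1 (Clic6) had an unadjusted p under 0.05, against 6.6% of all genes. The local pooled error test named in the methods also called 0, and 0 differed by 1.5-fold or more, as 1.88% of all probes did. By the brightest probe of each gene, 6 of the 7 had a higher mean under the Mrp4-null label, beside 46.3% of all 16093 genes. The median log2 fold change of the 7 was 0.08, beside -0.01 over all genes. Folr1 and Slc4a5, among the 6, were each at 0.0065, with second probes at -0.20 and -0.10. No shared shift is therefore read from the count. The arrays of the genotypes failed to overlap for 1 of the 7 genes, where 5.44% of all genes did so.

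**Figure D1:**
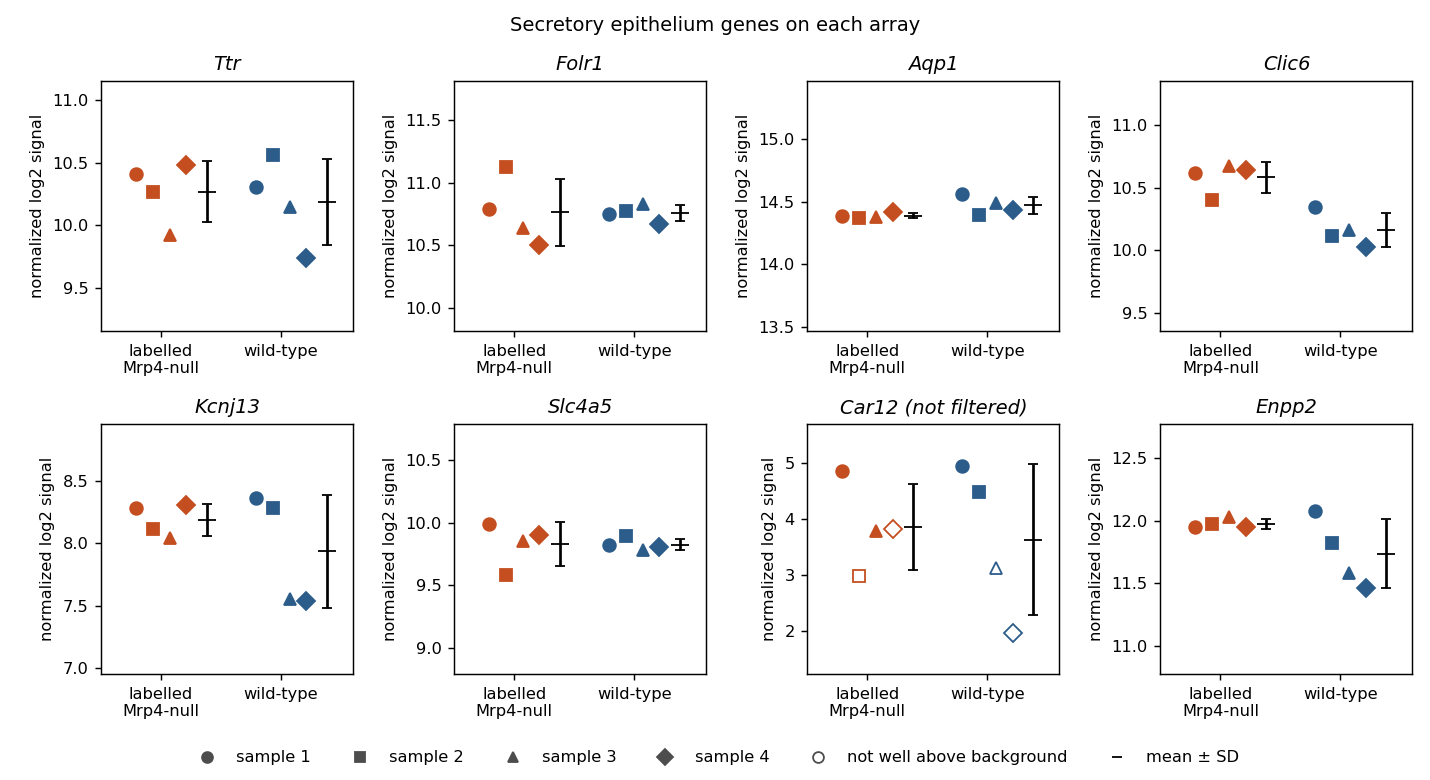
Normalized log2 signal of each secretory epithelium gene (vertical axis) on the 4 arrays labelled Mrp4-null and the 4 wild-type arrays, with mean ± SD beside each group. The axes start at different levels, and Car12, on a wider axis, is from values normalized without a filter on dim probes. Clic6 alone separated the genotypes, and Kcnj13 was lowest on wild-type arrays 3 and 4.

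Of the carrier genes, Ttr encodes transthyretin, which carries thyroid hormone and, bound to retinol-binding protein, retinol. Its brighter probe was at 10.41, 10.26, 9.92 and 10.48 on arrays 1 to 4 under the Mrp4-null label and at 10.30, 10.56, 10.15 and 9.74 in wild-type, in normalized log2 signal. The lowest and the highest array were both wild-type, and the genotypes overlapped fully. The log2 fold change was 0.08 (SE 0.19, 95% interval -0.35 to 0.51, adjusted p = 1.00 from limma), so a 1.5-fold difference lay outside the interval. A dimmer probe of the same transcript gave 0.15 with a much wider interval of -0.87 to 1.17. Between its 8 arrays that probe ranged over 1.75 log2 units, from 5.03 on array 2 to 6.78 on arrays 1 and 4, all labelled Mrp4-null.

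Folr1 encodes folate receptor alpha, which carries folate across epithelia. It was at 10.79, 11.13, 10.64 and 10.50 under the Mrp4-null label and at 10.75, 10.78, 10.83 and 10.67 in wild-type. The means were nearly equal, with a log2 fold change of 0.0065 (SE 0.13, 95% interval -0.29 to 0.31). The spread was not alike, with an SD of 0.27 under the Mrp4-null label against 0.067 in wild-type, and both the highest and the lowest array carried the Mrp4-null label. A second, dimmer probe, designed on another transcript of the gene, was at -0.20 (SE 0.15) and was not called either.

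Among the channels, Aqp1 encodes the water channel aquaporin-1, which is also known from amacrine cells and photoreceptors. Its signals were 14.39, 14.37, 14.38 and 14.42 under the Mrp4-null label and 14.56, 14.40, 14.49 and 14.44 in wild-type. All arrays lay within 0.19 log2 units, the narrowest range among these genes. The pooled SD within genotypes, 0.052, was below that of all but 3.46% of genes. The log2 fold change was -0.08 (SE 0.07, 95% interval -0.24 to 0.08).

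Clic6 belongs to the chloride intracellular channel family and is abundant in choroid plexus. It was at 10.62, 10.40, 10.68 and 10.64 under the Mrp4-null label and at 10.35, 10.11, 10.16 and 10.03 in wild-type. The lowest array labelled Mrp4-null lay just above the highest wild-type array, so the genotypes did not overlap. With means of 10.58 ± 0.12 (SD, n = 4) and 10.16 ± 0.14 (SD, n = 4), the log2 fold change was 0.42 (SE 0.10, 95% interval 0.20 to 0.65), or 1.34-fold. Its unadjusted p of 0.00241 from limma ranked 464 among the 37085 probes, and the adjusted p was 0.192. The difference was therefore larger than the spread between replicates, but it passed neither the fold change minimum nor the adjusted threshold. Leaving out any 1 array gave log2 fold changes of 0.38 to 0.49.

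Kcnj13 encodes the inwardly rectifying potassium channel Kir7.1, found in the apical membrane of the retinal pigment epithelium and of the choroid plexus. It was at 8.28, 8.11, 8.04 and 8.30 under the Mrp4-null label and at 8.36, 8.28, 7.56 and 7.54 in wild-type. Wild-type array 1 was the highest of all, wild-type array 2 lay among those labelled Mrp4-null, and wild-type arrays 3 and 4 lay below every other array. The wild-type arrays thus spanned 1.78-fold and those labelled Mrp4-null 1.20-fold. The log2 fold change of 0.25 (SE 0.21, 95% interval -0.22 to 0.72, adjusted p = 1.00 from limma) was within the spread, and without wild-type arrays 3 and 4 it was -0.14. Of all genes, 86.0% had a smaller pooled SD within genotypes than the 0.33 of Kcnj13.

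The table of RefSeq promoters held windows for 4 of the 8 genes, Aqp1, Kcnj13, Car12 and Slc4a5. The 250 bases before the start of Kcnj13 and of Aqp1, chosen as the genes with the largest and the smallest spread within genotypes, are printed with CG dinucleotides in capitals.
Kcnj13, GRCm38.p6, chr1:87394730-87394979, minus strand: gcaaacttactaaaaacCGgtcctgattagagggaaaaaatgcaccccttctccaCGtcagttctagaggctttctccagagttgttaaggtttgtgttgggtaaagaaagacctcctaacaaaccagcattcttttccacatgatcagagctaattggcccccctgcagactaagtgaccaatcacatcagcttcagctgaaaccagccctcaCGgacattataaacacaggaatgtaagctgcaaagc
Aqp1, GRCm38.p6, chr6:55336049-55336298, plus strand: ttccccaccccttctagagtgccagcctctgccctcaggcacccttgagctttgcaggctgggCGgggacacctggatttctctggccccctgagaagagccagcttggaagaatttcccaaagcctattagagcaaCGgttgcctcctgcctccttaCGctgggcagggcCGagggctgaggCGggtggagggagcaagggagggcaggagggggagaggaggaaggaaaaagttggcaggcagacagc
Kcnj13 held 3 CG dinucleotides at a GC content of 45.2%, and Aqp1 held 5 at 62.0%. The median over 32851 promoters was 6. TAATCC, a motif of OTX-type homeodomain factors, and the E-box CACGTG were searched on both strands of the full windows of 300 bases. Neither was found in the 4 windows, and 7.06% and 7.15% of all windows hold them.

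Slc4a5 encodes a sodium bicarbonate cotransporter of the choroid plexus and kidney. Its brighter probe was at 9.99, 9.59, 9.86 and 9.90 under the Mrp4-null label and at 9.82, 9.89, 9.79 and 9.81 in wild-type. Array 2 labelled Mrp4-null was lowest, the rest lay between 9.79 and 9.99, and the log2 fold change was 0.0065 (SE 0.10, 95% interval -0.22 to 0.23). A second probe of the same transcript gave -0.10 (SE 0.13). Car12 encodes a membrane-bound carbonic anhydrase, the enzyme that hydrates carbon dioxide to bicarbonate. Its processed signal was 32.6, 6.92, 17.0 and 14.7 under the Mrp4-null label and 33.5, 24.4, 7.06 and 3.07 in wild-type. It was well above background on arrays 1 and 3 labelled Mrp4-null and on wild-type arrays 1 and 2. Normalized with all probes, its log2 fold change was 0.23 with an SE of 0.71, a difference that was not detectable at this signal.

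Enpp2 encodes autotaxin, a secreted enzyme that makes lysophosphatidic acid and is present in aqueous humour and cerebrospinal fluid. It was at 11.95, 11.97, 12.03 and 11.95 under the Mrp4-null label and at 12.08, 11.82, 11.59 and 11.46 in wild-type. The arrays labelled Mrp4-null agreed within 0.079 log2 units, while wild-type arrays ranged over 0.62, with array 1 above and the other three below every array labelled Mrp4-null. The log2 fold change was 0.24 (SE 0.13, 95% interval -0.06 to 0.54, adjusted p = 0.928 from limma). Without wild-type arrays 3 and 4 it fell to 0.024, and without wild-type array 1 it was 0.35.

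**Figure D2:**
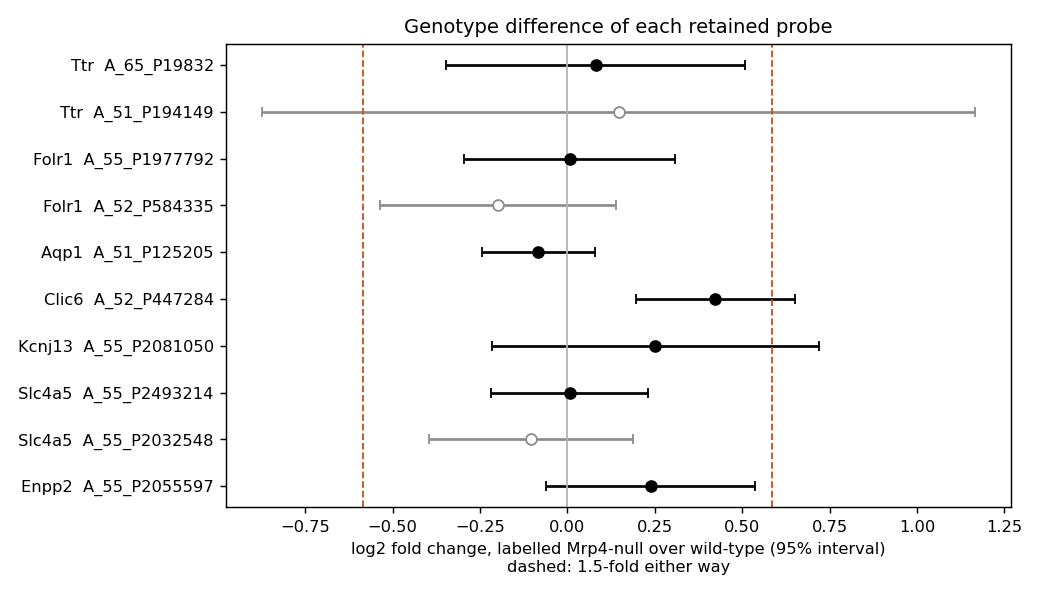
Log2 fold change of each retained probe (points), labelled Mrp4-null over wild-type, with 95% intervals from limma. Black points are the brightest probe of a gene, open grey points its other probe, and dashed lines mark 1.5-fold. The interval of Clic6, 0.20 to 0.65, excludes 0, and those of Clic6, Kcnj13 and the dimmer probe of Ttr extend past 1.5-fold, the last in both directions.

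Across the 8 arrays, the 7 tested genes did not vary as a single group. Of their 21 pairs, 12 had a positive Pearson's r, and the median r was 0.0719. Kcnj13 and Enpp2 were the closest pair (Pearson's r = 0.872, exact permutation p = 0.0191, adjusted over the 21 pairs 0.232; Spearman's rho = 0.619, exact permutation p = 0.115, adjusted 0.604). Without wild-type arrays 3 and 4, which lie farthest from the median of Kcnj13, r was -0.106, so the relation rests on those arrays. Ttr and Kcnj13 had r = 0.763 (exact permutation p = 0.0332, adjusted 0.232; rho = 0.762, exact permutation p = 0.0368, adjusted 0.604), and r was 0.733 without the 2 arrays farthest from the median of Ttr. Clic6 and Enpp2 had r = 0.762 (exact permutation p = 0.0281, adjusted 0.232; rho = 0.667, exact permutation p = 0.0831, adjusted 0.604), with 0.661 on deviations from the genotype means and 0.584 without the 2 arrays farthest from the median of Clic6. No pair passed adjustment. Folr1 and Slc4a5 had the most negative value (r = -0.706, exact permutation p = 0.0675, adjusted 0.354; rho = -0.476, exact permutation p = 0.243, adjusted 0.729), and without arrays 2 and 4 labelled Mrp4-null it was 0.171.

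Probes of the same gene agreed only in part. The pairs of probes of Ttr (r = 0.627, exact permutation p = 0.101, adjusted over 3 pairs 0.152; rho = 0.714, exact permutation p = 0.0576, adjusted 0.0864) and of Folr1 (r = 0.647, exact permutation p = 0.0716, adjusted 0.152; rho = 0.714, exact permutation p = 0.0576, adjusted 0.0864) went up and down broadly together. Without the 2 arrays farthest from the median of the brighter probe, r was 0.843 and 0.876. For Slc4a5 r was 0.206 (exact permutation p = 0.628, adjusted 0.628; rho = 0.238, exact permutation p = 0.582, adjusted 0.582), and 0.503 without such arrays.

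On wild-type arrays 3 and 4, low in Kcnj13 and Enpp2, the mean over genes of the pigment epithelium was also low, but not every gene was. Of 17 such genes, 13 were retained. Named after their values were seen, Rpe65, Best1, Tyrp1, Dct and Mlana were lowest on these arrays. Others were not: on wild-type array 4 Mitf was highest at 10.29, and Rrh, at 10.78, lay above arrays 1, 2 and 4 labelled Mrp4-null. Rgr, at 9.25 and 8.92 on wild-type arrays 3 and 4, lay above arrays 2 and 3 labelled Mrp4-null, at 8.90 and 8.87. The mean log2 signal of the 13 genes was 7.30, 7.48, 7.12 and 7.33 under the Mrp4-null label and 7.43, 7.40, 7.003 and 7.09 in wild-type. By this mean, wild-type arrays 3 and 4 were the lowest of all, while array 3 labelled Mrp4-null was nearly as low and had more Enpp2 than all but wild-type array 1. Summed over the 13 genes, the normalized signal was 4972 to 5594 under the Mrp4-null label and 4526 to 6071 in wild-type. Rpe65, the visual cycle isomerase that defines this epithelium, was well above background on every array, with a log2 fold change of 0.22 (SE 0.22). The largest differences were those of the melanosome genes Pmel (-0.51, SE 0.24), Tyrp1 (0.33, SE 0.28) and Mlana (0.23, SE 0.36). Limma and the local pooled error test called 0 of the 13 changed (0.572% of all genes and 0.623% of all probes), and 0 had an unadjusted p under 0.05 (6.6% of all genes). The genotypes did not overlap for 1 of the 13, Rab38, at 0.12, beside 5.44% of all genes. The same 2 wild-type arrays were those with Y-linked signal and no Xist signal. The part of either in the low values was not tested.

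**Figure D3:**
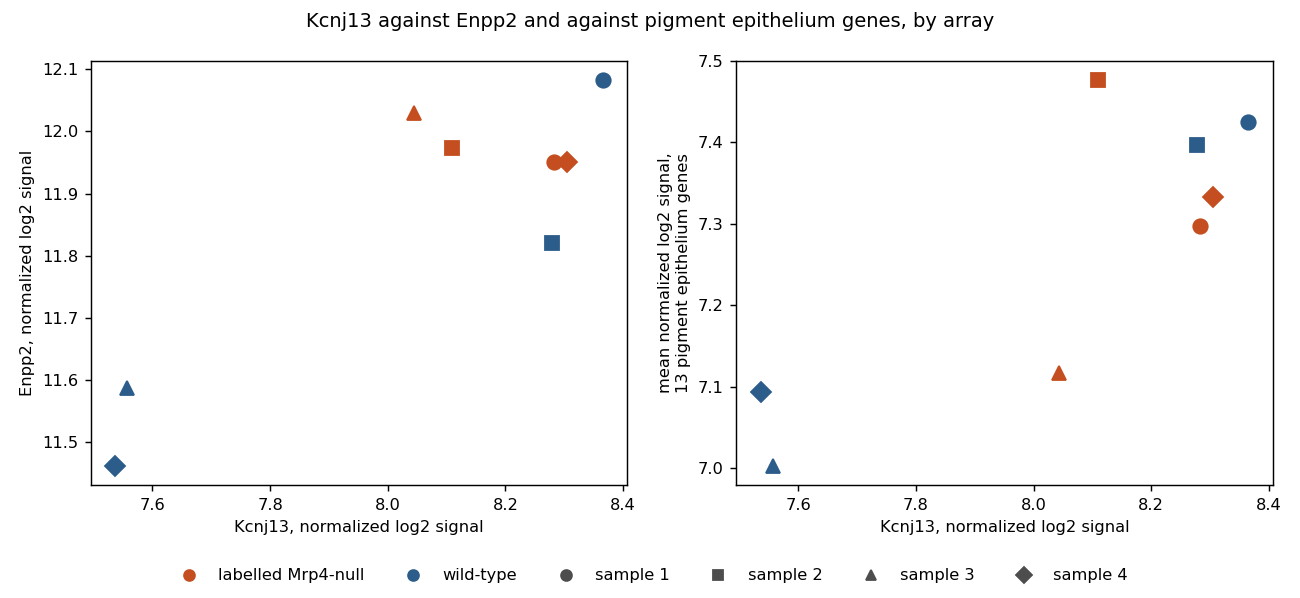
Normalized log2 signal of Kcnj13 (horizontal axes) against that of Enpp2 (left) and against the mean of 13 pigment epithelium genes (right), 1 point per array. Wild-type arrays 3 and 4 sit apart at the lower left of both panels, with Kcnj13 at 7.56 and 7.54.

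For each gene, the 3 others with the highest Pearson's r of normalized log2 signal over the 8 arrays were taken from 16087 genes, a description of these arrays only. They were Rbfox3 (r = 0.973), Ptcd2 and E530011L22Rik for Ttr, and Nat14 (0.933), Tmem9b and Tmem50b for Aqp1. Clic6 was closest to Gpat2 (r = 0.979), Chst3 and Abl2, and Kcnj13 to Arel1 (0.968), Stab2 and Rtn4ip1. For Enpp2 they were Dynlt1c (r = 0.996), Mta1 and Musk, for Folr1 Flywch2 (0.979), Efnb1 and Car9, and for Slc4a5 Rpl29 (0.982), Psmd2 and Gm4013. No gene was named for 2 of them, and none of the 21 was a gene of the lists described here.

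The partners of these genes were followed through 6 lists of 104 genes besides the 8, of which 90 had a retained probe. Limma called 0 of the 90 changed, and 23 had an unadjusted p under 0.05, where 6.6% of all genes had one. Of the 23, Dio3, Clic3, Cldn2, Wdr86, Car4 and Myoc had passed the filter only through the genotype in which they were higher, so the count is not read against that share. The local pooled error test called 3 of the 90, Optc, Slc13a4 and Prss56, where it called 0.623% of all probes.

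Around transthyretin, 10 of 11 genes of retinol and thyroid hormone handling were retained. An unadjusted p under 0.05 was found for 3 (6.6% of all genes), but Dio3, which is among them, had passed the filter through the arrays labelled Mrp4-null alone, so the count is not read against that share. Dio3, the deiodinase that inactivates thyroid hormone, was at a log2 fold change of 0.77 (SE 0.23, adjusted p = 0.398 from limma). It was at 4.96 to 5.55 under the Mrp4-null label and 3.76 to 4.81 in wild-type, where it was well above background on 3 arrays. Slco1c1, a thyroid hormone transporter of the blood-brain barrier, was at -0.38 (SE 0.11), without overlap. Stra6, the retinol receptor, was at 0.33 (SE 0.22). Around Folr1, all 11 folate genes were retained. Of these, 7 were higher and 4 lower, with a median log2 fold change of 0.037. Shmt1, an enzyme of the folate cycle, was at -0.31 (SE 0.13).

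Around autotaxin, 7 of 14 genes were retained. Of its receptors, Lpar2, Lpar3, Lpar4 and Lpar5 were not, and Lpar6 was at 0.26 (SE 0.13). Plpp2, a phosphatase that degrades lysophosphatidic acid, was at -0.32 (SE 0.07, adjusted p = 0.168 from limma), with 13.84 to 14.01 under the Mrp4-null label and 14.22 to 14.30 in wild-type. Its second probe gave -0.43. Enpp5, of the same family as Enpp2, was at 0.10 (SE 0.21).

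All 28 genes of fluid transport were retained, with 14 higher and 14 lower and a median log2 fold change of -0.0038. Car4, a membrane-bound carbonic anhydrase, had the largest difference, -0.63 (SE 0.23, adjusted p = 0.619 from limma), with 3 of the 4 arrays under the Mrp4-null label above background. Clic3 was at 0.61 (SE 0.19), with 1 wild-type array above background, and Clic4 was at -0.44 (SE 0.17). These relatives of Clic6 differed from it and from each other in sign or size, but no such difference was tested. Aqp4 and Aqp5, singled out after their values were seen, were at -0.39 and -0.37 without overlap, and the other probe of each was lower as well, at -0.36 and -0.25. Over the 28 genes, the genotypes did not overlap for 3 that were lower and 0 that were higher (2.72% of all genes in each direction). The 3 include Car4, which had passed the filter through wild-type alone, so the count is not read against that share.

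Genes typical of the choroid plexus and of the ciliary margin held the largest differences among the 6 lists. Of 25 choroid plexus genes, 22 were retained, 14 of them higher and 8 lower, with a median log2 fold change of 0.07. The genotypes did not overlap for 5 that were higher and 1 that was lower (2.72% of all genes in each direction), but 2 of these 5, Cldn2 and Wdr86, had passed the filter through the arrays labelled Mrp4-null alone, so their count is not read against that share. Slc13a4, a sulfate transporter, was at 9.10, 9.71, 9.64 and 8.79 under the Mrp4-null label and at 8.21, 8.33, 7.67 and 8.31 in wild-type, a log2 fold change of 1.18 (SE 0.23, adjusted p = 0.101 from limma). Its lowest value under the Mrp4-null label exceeded the highest in wild-type. Ecrg4, which encodes a secreted peptide precursor, was at 6.78, 7.28, 6.14 and 6.33 against 5.67, 5.94, 5.38 and 5.88, a log2 fold change of 0.92 (SE 0.25, adjusted p = 0.289 from limma). Wdr86 had the largest value of the list, 1.44 (SE 0.44, adjusted p = 0.421 from limma), but it was well above background on only 1 wild-type array. Lrp2, the endocytic receptor megalin, was named after its values were seen, as was Otx2. The 3 probes of Lrp2 were at 0.58, 0.53 and 0.59, with adjusted p = 0.253, 0.573 and 0.355 from limma. Otx2, a homeodomain factor of choroid plexus, pigment epithelium and photoreceptors, was at -0.03 (SE 0.10).

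Of the 15 ciliary body and margin genes, 14 were on the array by name and 12 were retained, 11 higher and 1 lower, with a median log2 fold change of 0.15. The genotypes did not overlap for 2 that were higher, Optc and Prss56, and for Myoc, which was lower and had passed the filter through wild-type alone (2.72% of all genes in each direction). Optc encodes opticin, a proteoglycan that the non-pigmented ciliary epithelium secretes into the vitreous. It was at 10.17, 10.54, 10.25 and 9.17 under the Mrp4-null label and at 9.004, 8.79, 7.78 and 8.45 in wild-type. Array 4 labelled Mrp4-null lay closest to wild-type, just above wild-type array 1. The log2 fold change was 1.53, or 2.88-fold (SE 0.34, 95% interval 0.75 to 2.30, adjusted p = 0.158 from limma), and a second probe gave 0.95 (SE 0.22, adjusted p = 0.191 from limma). Prss56, a serine protease linked to eye size and expressed in Muller glia, was at 12.04, 12.11, 12.74 and 11.80 against 11.47, 11.27, 11.25 and 10.83, a log2 fold change of 0.97 (SE 0.21, adjusted p = 0.143 from limma). Myoc, the gene for myocilin, was the 1 lower gene, at -0.48 (SE 0.17), with 3 of the 4 arrays under the Mrp4-null label above background. Summed over the 12 genes, the normalized signal was 7909 to 12105 under the Mrp4-null label and 5929 to 7043 in wild-type. Without Optc and Prss56, left out after their values were seen, the other 10 genes summed to 3763 to 4064 and 3675 to 3856, and the genotypes overlapped. Of the 7 tested secretory epithelium genes, only Clic6 had arrays that did not overlap, and no test of the lists against each other was made.

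**Figure D4:**
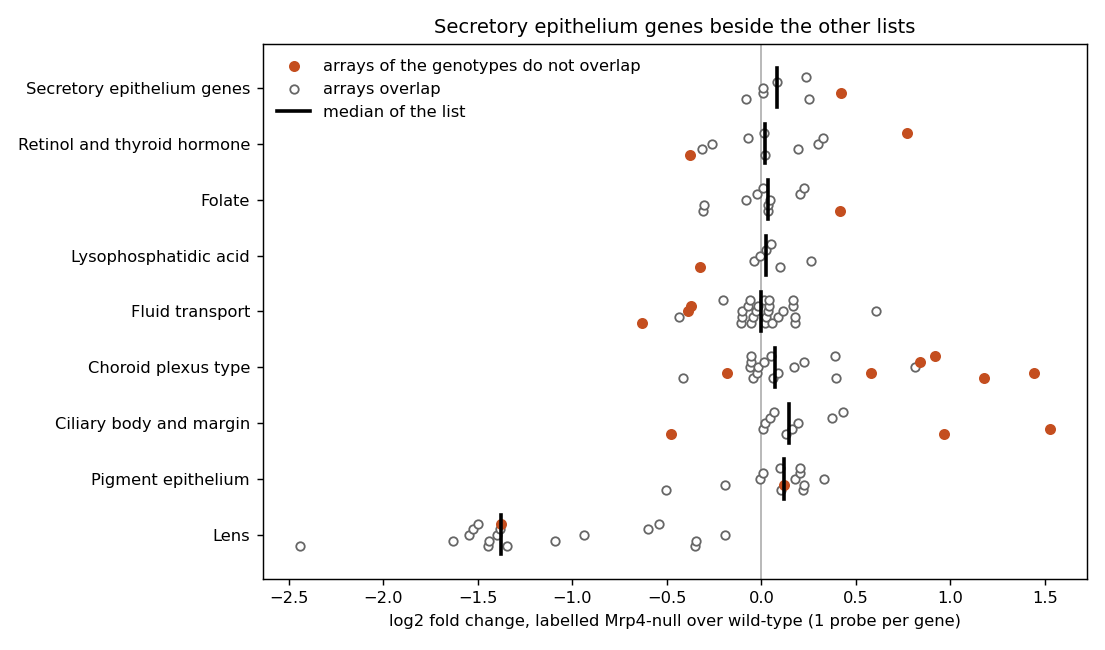
Log2 fold change of every retained gene, labelled Mrp4-null over wild-type, by its brightest probe and by list, with the median of each list as a bar. Filled points are genes whose arrays did not overlap between genotypes. The secretory epithelium genes lie between -0.08 and 0.42, and Optc at 1.53 is the highest point.

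Lens genes had another order of the arrays. The mean log2 signal of 18 retained lens genes was 6.68, 6.42, 7.58 and 8.32 under the Mrp4-null label and 8.63, 9.52, 7.40 and 8.15 in wild-type, and all 18 had a lower mean under the Mrp4-null label, with a median log2 fold change of -1.38. Limma called 0 of them, with 5 at an unadjusted p under 0.05 (6.6% of all genes), and the local pooled error test called 12 (0.623% of all probes). The 12 include Mip, which had passed the filter through wild-type alone, so that count is not read against the share. The largest differences were those of Mip (-2.44, SE 1.39, above background on 2 arrays labelled Mrp4-null), Lim2 (-1.63, SE 0.81) and Cryba2 (-1.55, SE 0.76). The list was lowest on arrays 2 and 1 labelled Mrp4-null, where Kcnj13 and Enpp2 were not low. The mean over blood genes was 10.09 to 11.12, over smooth muscle genes 7.93 to 8.18 and over the 5 retained of 9 skeletal muscle genes 5.22 to 5.89, with the genotypes overlapping in each. Corneal genes, of which 4 of 8 were retained, were highest on array 2 labelled Mrp4-null, at 6.31 against 5.48 to 5.79 elsewhere, and Krt12, the corneal keratin, was at 6.10 there against 4.37 to 4.78. The part of these tissues in the values above was not tested.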

How the data were processed

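RNA of 8 retina samples was hybridized to one-color Agilent mouse arrays and scanned, and the deposited intensity per spot is the gProcessedSignal that Agilent Feature Extraction 11.0.1.1 wrote, background-subtracted by the authors' scanner software. The deposited value table, used as an alternative, holds the same intensity per probe. From these intensities, outlier spots were dropped (78 to 143 per array), spots of a probe were averaged on the log2 scale and the arrays were quantile normalized. Probes flagged as well above background on all measured arrays of either genotype were kept, which left 37085 of 56605 probes. Quantile normalization sets all arrays to the same distribution, so a shift shared by most genes would not be seen.

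Genotypes were compared in limma 3.58.1 (R 4.3.3) over all retained probes, with no covariate and with Benjamini-Hochberg adjustment. The methods' own local pooled error test was run as an alternative. Both tests were checked on simulated data, where the local pooled error test made more false calls than limma. It also recovered more of the changes set larger than 1.5-fold. Both recovered only a minority of those set at 1.5-fold, so a change of that size could go uncalled. Accessions were matched to gene symbols through RefSeq (GRCm38.p6), which named 32994 probes and 22911 genes. A gene was represented by its brightest retained probe, and levels were not compared between probes. Named were all secretory epithelium genes and the 3 genes of each partner list with the largest fold change; others are marked in the text, and some are not reported here. The genes and lists were chosen with earlier results of these data known. Correlations used exact permutation of the 8 arrays.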

Additional observations from a re-analysis of the deposited data

How the results depend on the processing

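Under every alternative run, 0 of the secretory epithelium genes was called, and Abcc4 stayed at 3.29 to 4.00 on the log2 scale. The alternatives covered the local pooled error test, another normalization, background correction or filter on dim probes, outlier spots kept, the deposited table, another variance model, another probe of a gene and any 1 array left out. Clic6 stayed at 0.35 to 0.49 on the log2 scale, with a smallest adjusted p of 0.112 from limma. Among the partner genes, the local pooled error test called 3 (0.623% of all probes). A fold change of 1.5 with no test gave 10 (1.88% of all probes), and every other alternative called 0. The 10 include Dio3, Clic3, Cldn2, Wdr86 and Car4, which had passed the filter only through the genotype in which they were higher. That count is therefore not read against the share.

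Ttr, Folr1, Slc4a5 and Kcnj13 changed sign under some alternatives, and Aqp1, Clic6 and Enpp2 under none of those run. Leaving out 1 array in turn, Ttr ranged from -0.068 to 0.21, Folr1 from -0.11 to 0.095 and Slc4a5 from -0.047 to 0.090. Folr1 was at -0.021 after a shift to the 75th percentile, and under normexp Folr1 was at -0.012 and Slc4a5 at -0.0097. Leaving out arrays in pairs was chosen after seeing the data. Without wild-type arrays 3 and 4, Ttr was at -0.16, Kcnj13 at -0.14 and Slc4a5 at -0.023. Car12 was at -0.74 in that fit. It passed the filter there only because its dim wild-type arrays were left out, so this value is not read as a change of sign. With the dimmest arrays left out, number 2 of the Mrp4-null label and wild-type array 3, Folr1 was at -0.089. The cause was not tested.

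Sample numbers 1 to 4 were shared by the genotypes but did not pair the samples: deviations of same-numbered samples correlated at -0.29, -0.69, 0.03 and 0.41. With the replicate block, limma called 71 of 37085 probes in place of 202, and 0 of the secretory epithelium genes. Leaving out 1 array gave 117 to 188 calls over all probes, and leaving out wild-type arrays 3 and 4 gave 62. Normexp was run on the median signal, since the files used here have no mean signal column. Dim probes limit Car12 most.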
